A study of Bos taurus and other sequences with 9 samples.

Results

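The 59 loci that code for tRNA-Met, tRNA-Ile, tRNA-Phe and tRNA-Trp were followed through 5 culture media. They were taken from the table of small non-coding RNAs other than miRNA as every locus of type tRNA whose name carries Met, Ile, Phe or Trp after the hyphen, and they made up 59 of the 530 tRNA loci among 1361 loci. Methionine had 18 loci, isoleucine 21, phenylalanine 12 and tryptophan 8.

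Small RNA was sequenced from 9 samples after isolation with a kit for extracellular vesicles (EVs). Whether the RNA was carried by vesicles was not shown, and both vesicular and non-vesicular RNA may be present. FBS was DMEM/F12 medium with untreated fetal bovine serum, from Sigma in FBS-1 and from Gibco in FBS-2. UC-dFBS held serum depleted of EVs by ultracentrifugation, and UF-dFBS held the flow-through of serum passed over a centrifugal filter. Both were made from the sera of FBS-1 and FBS-2, so that sample 1 came from the Sigma serum and sample 2 from the Gibco serum. SBI-dFBS was a commercial EV-depleted serum of System Biosciences, with 2 lots. StemPRO was a defined serum-free medium for mesenchymal stem cells, with 1 sample and therefore no replicate. No cells were grown in any of these media, and the other 4 media each had 2 samples from different sera or lots, so that the spread between them includes the difference between sera and the p-values measure only the spread between these samples.

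A tRNA carries 1 amino acid to the ribosome, where its anticodon pairs with the codon. Methionine and tryptophan are each read by a single anticodon, CAT and CCA, whereas isoleucine is read by AAT, GAT and TAT. Methionine has separate tRNAs for starting a protein (initiator) and for extending it (elongator). In human tRNA genes, those for IleTAT carry an intron. Outside cells, tRNA is found mostly as fragments, and serum is rich in them.

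The anticodon and length of the loci followed that scheme. Of the 18 MetCAT loci, 9 spanned 72 bases and 9 spanned 73 bases. In the human genome the former length is that of the initiator genes and the latter that of the elongator genes, although the table does not name them so. The Ile loci were 14 IleAAT and 3 IleGAT loci of 74 bases and 4 IleTAT loci of 93 to 94 bases. The Phe loci were all PheGAA and spanned 73 to 76 bases, and the Trp loci were all TrpCCA and spanned 72 or 74 bases. Of the 59 loci, 35 were on human chromosome 6 (GRCh37) between positions 26286754 and 58149327, and the 3 IleGAT loci were on chromosome X. Reads of bovine serum were placed on human loci, and how a read that fits several tRNA copies was placed is not given in the sources used here, so that values of single loci are less certain than totals of an isotype.

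Depth differed between the samples. Total counts of the 8 FBS-based samples ranged from 82513 in UF-dFBS-2 to 6867736 in UF-dFBS-1, and StemPRO had 6679. The 59 loci took 121 to 13164 counts of the FBS-based samples and 185 of StemPRO. These were between 0.0748% (UF-dFBS-1) and 0.349% (FBS-2) of the tRNA counts of the FBS-based samples and 4.03% of those of StemPRO. Levels are given as spike-in normalized counts, that is, counts divided by a factor that the authors fitted to external spike-in RNAs of each sample. One such unit stood for 3.78 counts in SBI-dFBS-2, the lowest factor, and for 108 counts in StemPRO, the highest.

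Met loci had by far the most counts of the 4 isotypes in serum. tRNA-Met reached 1274 and 204 spike-in normalized counts in FBS-1 and FBS-2, 927 and 3089 in the SBI-dFBS lots, 956 and 298 for UC-dFBS, 72.8 and 2.66 for UF-dFBS, and 0.389 for StemPRO. tRNA-Ile was at 142 and 12.6 in FBS, 48.1 and 336 in the SBI-dFBS lots, 61.0 and 13.5 for UC-dFBS, 15.3 and 1.04 for UF-dFBS, and 0.694 for StemPRO. For both isotypes the UF-dFBS and StemPRO samples were the low ones, except that tRNA-Ile of UF-dFBS-1 lay above FBS-2 and UC-dFBS-2.

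tRNA-Trp was at 21.3 and 3.76 in FBS, 27.9 and 55.3 in the SBI-dFBS lots, 11.9 and 4.98 for UC-dFBS, 3.01 and 0.500 for UF-dFBS, and 0.204 for StemPRO. tRNA-Phe was at 1.86 and 0.939 in FBS, 8.40 and 5.03 in the SBI-dFBS lots, 1.22 and 1.03 for UC-dFBS, 1.50 and 0.833 for UF-dFBS, and 0.426 for StemPRO. tRNA-Phe was thus low in every medium and stood out only in SBI-dFBS, whose samples were both above the other 7. It rested on 7 to 9 counts in each FBS and UC-dFBS sample.

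**Figure D1:**
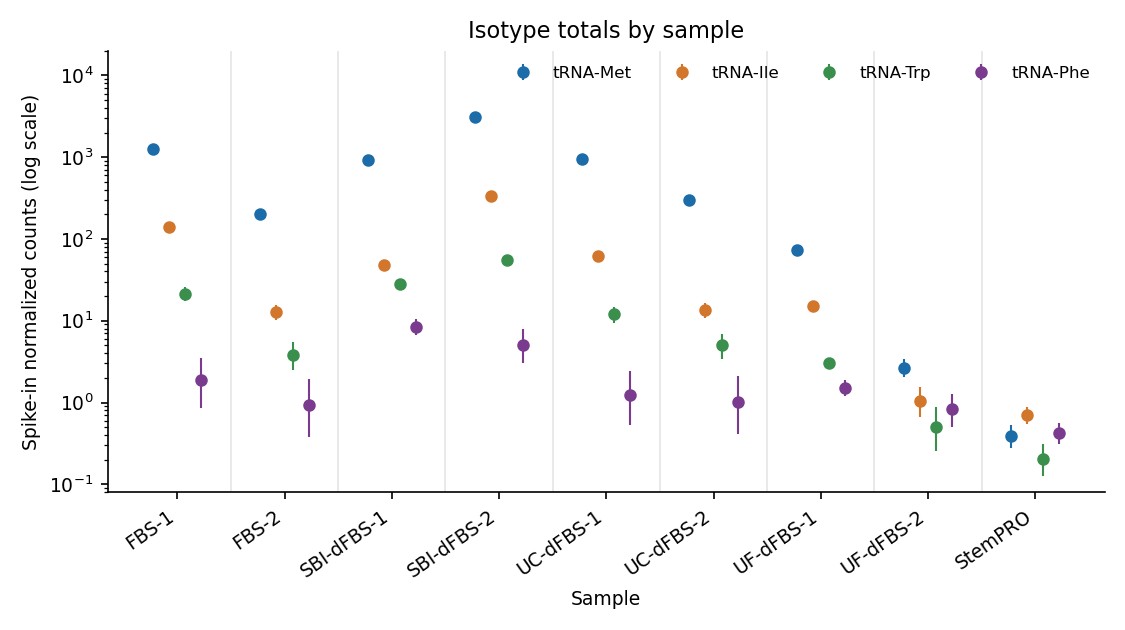
Summed spike-in normalized counts (log scale) of the tRNA-Met, Ile, Trp and Phe loci in each of the 9 samples; bars are 95% Poisson intervals of the counts and cover counting error only. tRNA-Met is the highest of the 4 in all 8 FBS-based samples, from 2.66 in UF-dFBS-2 to 3089 in SBI-dFBS-2, whereas in StemPRO all 4 lie between 0.204 and 0.694.

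Expressed per medium, tRNA-Met was at 739 ± 756 (SD, n = 2) in FBS, 2008 ± 1529 in the SBI-dFBS lots, 627 ± 465 for UC-dFBS and 37.7 ± 49.6 for UF-dFBS. tRNA-Ile was at 77.1 ± 91.2, 192 ± 203, 37.3 ± 33.6 and 8.16 ± 10.1 in the same order. The SD exceeded the mean in 5 of these 8 groups. For tRNA-Phe the spread was smaller, at 1.40 ± 0.650, 6.72 ± 2.39, 1.12 ± 0.140 and 1.17 ± 0.474. tRNA-Trp was at 12.5 ± 12.4, 41.6 ± 19.4, 8.46 ± 4.91 and 1.75 ± 1.77.

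Most of the loci had a count, but the counts were concentrated on few of them. The 9 MetCAT loci of 72 bases held 47.1% of the counts of the 59 loci in UF-dFBS-2. In the other FBS-based samples they held 77.9% (UF-dFBS-1) to 93.8% (UC-dFBS-2). Of the 59 loci, 58 had a count in at least 1 FBS-based sample, the exception being tRNA19-TrpCCA. At most 3 counts in every FBS-based sample were found at 6 Met, 4 Ile, 5 Phe and 1 Trp loci.

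Among the 20 isotypes in the table the 4 were mostly minor ones. By share of tRNA counts, tRNA-Met ranked from 7 to 11 in the FBS-based samples, tRNA-Ile from 11 to 15.5, tRNA-Trp from 15 to 20 and tRNA-Phe from 17 to 20. In StemPRO tRNA-Met ranked 19 and tRNA-Ile 13.

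The isotypes were compared within samples on spike-in normalized counts per 100 bases of locus. tRNA-Met exceeded tRNA-Ile by 10.8-fold on average (higher in 8 of 8 FBS-based samples, exact paired permutation test, two-sided p = 0.0078, adjusted p = 0.0094 over 6 pairs). It exceeded tRNA-Trp by 37.2-fold and tRNA-Phe by 158-fold with the same p, which is the smallest that 8 pairs can give. The difference between tRNA-Met and tRNA-Phe was 7.31 on the log2 scale, from 1.70 to 9.63 in single samples, and 8.11 without UF-dFBS-2. tRNA-Ile exceeded tRNA-Phe by 14.6-fold and tRNA-Trp by 3.43-fold, again in 8 of 8 samples. tRNA-Phe was lower than tRNA-Trp in all but UF-dFBS-2 (ratio 0.235, exact permutation p = 0.0156, adjusted p = 0.0156). Samples made from the same serum are not independent, which these tests do not take into account. The order also depends on how many loci an isotype has: as a mean per locus, tRNA-Ile and tRNA-Trp differed by 0.39 on the log2 scale (exact permutation adjusted p = 0.19).

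Within tRNA-Met the 2 length classes were very unequal. The 72-base loci held from 98.9% to 99.97% of the Met counts in 7 FBS-based samples and 89.1% (57 of 64 counts, Wilson 95% interval 79.1 to 94.6%) in UF-dFBS-2. In StemPRO they held 33.3% (14 of 42 counts, interval 21.0 to 48.4%). In serum, nearly all tRNA-Met counts therefore fell on loci of the initiator length, and in StemPRO most fell on loci of the elongator length.

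The 9 loci of 72 bases had similar levels. The highest of them had 1.25 to 1.56 times the counts of the lowest in the FBS-based samples other than UF-dFBS-2, where they had 2 to 10 counts. tRNA32-MetCAT (chromosome 1, 153643726 to 153643797, plus strand) was at 167 and 25.4 spike-in normalized counts in FBS, 119 and 410 in the SBI-dFBS lots, 122 and 43.4 for UC-dFBS, 9.23 and 0.333 for UF-dFBS and 0.0278 for StemPRO. tRNA61-MetCAT (chromosome 6, 27745664 to 27745735, plus strand) and tRNA2-MetCAT (chromosome 6, 26286754 to 26286825, plus strand) had nearly the same values, for example 160 and 164 in FBS-1 and 390 and 381 in SBI-dFBS-2. In 7 of the 8 FBS-based samples these 3 loci were all above the other 6 loci of that length and together held 37.7 to 39.7% of the counts of the 9. The other 6 were all on the minus strand, so that this split is also one of strand. How reads were placed among such copies is not known, and a difference between the loci themselves is not shown.

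The 73-base MetCAT loci had 15 and 17 counts in FBS, 37 and 14 in the SBI-dFBS lots, 2 and 1 for UC-dFBS, 37 and 7 for UF-dFBS and 28 for StemPRO, over 9 loci. Most came from 2 of them, named here after their values were seen. tRNA10-MetCAT on chromosome 8 had 10, 11, 19, 4, 1, 1, 11, 2 and 12 counts in the sample order used above. tRNA22-MetCAT on chromosome 16 had 1, 2, 7, 3, 0, 0, 21, 4 and 12 counts. On the spike-in scale tRNA10-MetCAT was at 2.06 and 1.48 in FBS, 0.153 and 0.147 in UC-dFBS and 0.199 and 0.0833 in UF-dFBS, so that UF-dFBS-2 was the lowest of these.

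tRNA-Ile had a similar make-up across media. IleAAT loci held 74.9 to 87.0% of the Ile counts in the 9 samples and IleGAT loci 12.0 to 25.1%. tRNA7-IleGAT (chromosome X, 3756418 to 3756491, minus strand) was at 9.29 and 0.537 spike-in normalized counts in FBS, 2.65 and 30.2 in the SBI-dFBS lots, 5.97 and 0.586 for UC-dFBS, 1.14 and 0.125 for UF-dFBS and 0.0463 for StemPRO. tRNA158-IleAAT (chromosome 6, 27144994 to 27145067, minus strand) and tRNA10-IleAAT (chromosome 14, 102783429 to 102783502, plus strand) were at 13.8 and 9.29 in FBS-1 and at 21.7 and 25.4 in SBI-dFBS-2. The 3 loci were thus highest in the second SBI-dFBS lot, as was the isotype.

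A few Ile loci departed from this pattern and were picked after their values were seen. The IleTAT loci had 7 and 3 counts in FBS, 9 and 0 in the SBI-dFBS lots, 0 and 0 for UC-dFBS, 0 and 1 for UF-dFBS, and 4 for StemPRO. In UF-dFBS-1, 0 of 844 Ile counts were IleTAT, which allows a share of up to 0.355% (3 counts), against 7 of 686 (1.02%) in FBS-1. In the Gibco serum it was 1 of 25 in UF-dFBS-2 against 3 of 94 in FBS-2, so that the shares are not separated at this depth. tRNA38-IleAAT had no count in either FBS sample, but 2 in each UC-dFBS sample, 7 and 3 for UF-dFBS and 10 for StemPRO. On the spike-in scale it was highest for UC-dFBS, at 0.306 and 0.293, against 0.127 and 0.125 for UF-dFBS and 0.0926 for StemPRO. In FBS-1 and FBS-2, 3 counts stood for 0.619 and 0.402, which is above all these values, so that a difference from FBS is not shown. All of these counts are small.

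Trp counts came mainly from 1 locus. tRNA12-TrpCCA (chromosome 17, 19411494 to 19411565, plus strand) was at 14.7 and 2.55 spike-in normalized counts in FBS, 19.7 and 38.7 in the SBI-dFBS lots, 9.48 and 3.52 for UC-dFBS, 2.14 and 0.125 for UF-dFBS and 0.0278 for StemPRO. It held 67.9 to 79.5% of the Trp counts in 7 FBS-based samples, but 3 of 12 in UF-dFBS-2 and 3 of 22 in StemPRO. tRNA6-TrpCCA on chromosome 12 (98898030 to 98898101, plus strand) followed with 3.92 and 0.537 in FBS and 5.86 and 11.6 in SBI-dFBS, and tRNA168-TrpCCA (chromosome 6, 26331672 to 26331743, minus strand) stayed at or below 1.32 in every sample.

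For tRNA-Phe the leading locus differed between media. tRNA106-PheGAA (chromosome 6, 28775610 to 28775682, minus strand) had 4 of 8 and 4 of 7 Phe counts in UC-dFBS, 41 of 83 and 8 of 20 in UF-dFBS and 24 of 46 in StemPRO. In SBI-dFBS it had only 1 of 76 (1.32%, Wilson 95% interval 0.233 to 7.08%) and 1 of 19 counts. There, tRNA1-PheGAA (chromosome 13, 95201904 to 95201976, minus strand), with 17 and 3 counts, and tRNA14-PheGAA (chromosome 19, 1383361 to 1383433, minus strand), with 13 and 5, were higher. In FBS no Phe locus had more than 2 counts, so that a leading locus could not be told at this depth.

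**Figure D2:**
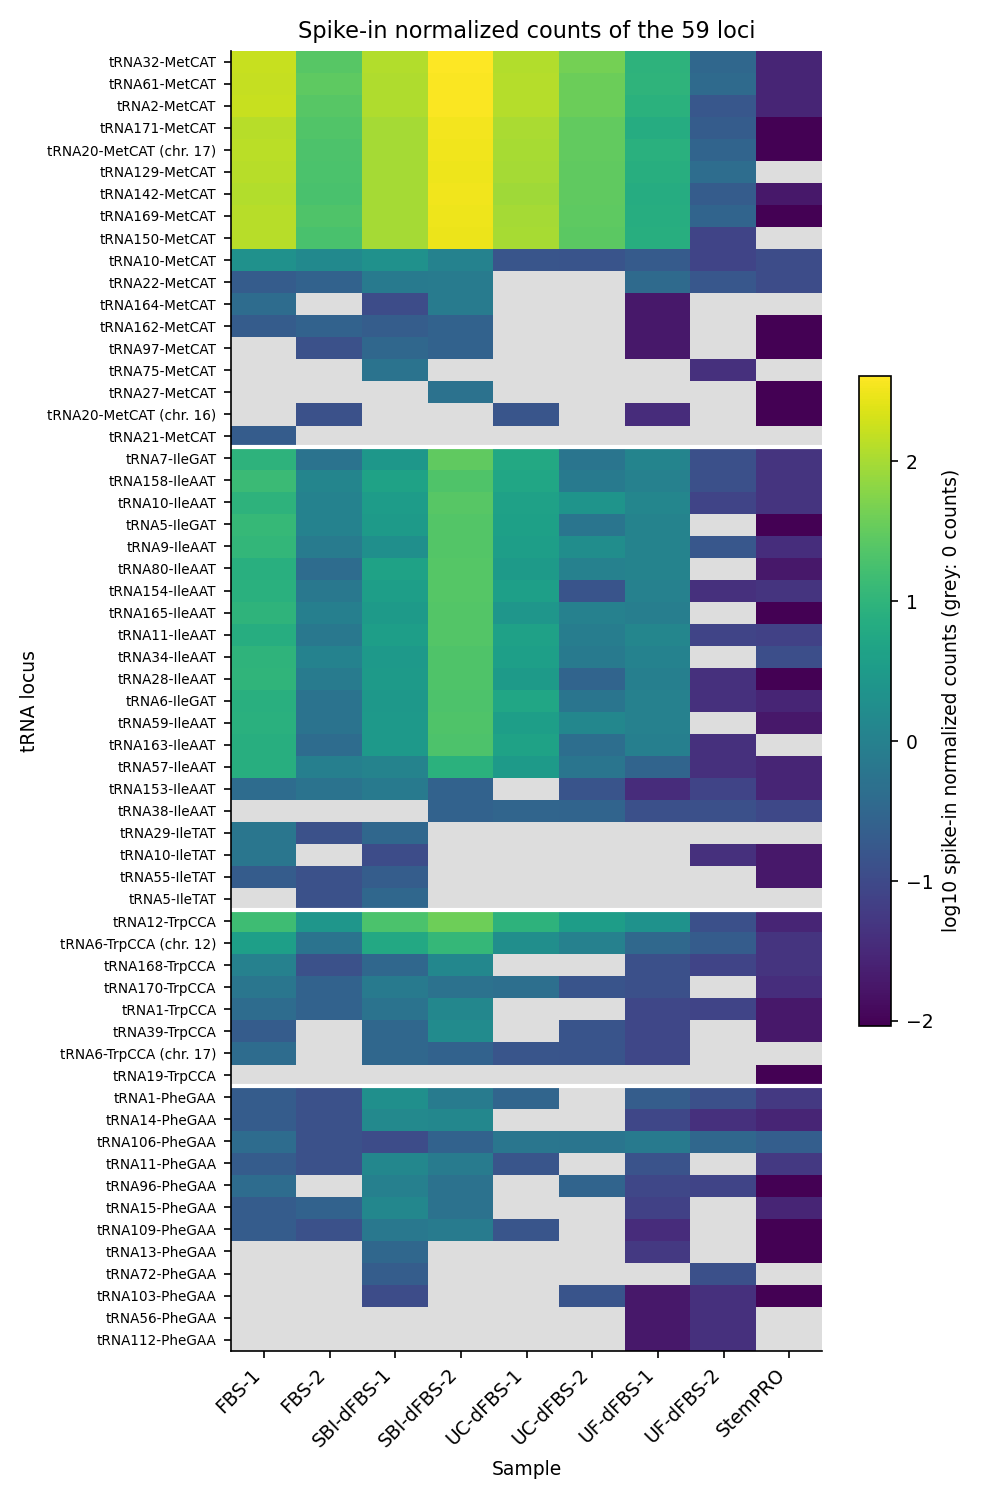
Log10 spike-in normalized counts of each of the 59 loci (vertical axis, ordered within Met, Ile, Trp and Phe by the mean level of the FBS-based samples) in the 9 samples (horizontal axis); grey marks 0 counts. The 9 MetCAT loci of 72 bases form an even block, 1 TrpCCA locus leads its isotype, and no locus passes 1 spike-in normalized count in StemPRO.

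In UF-dFBS, Ile, Trp and Phe made up a larger part of the 4 isotypes than in the other sera. The ratio of Met to Ile totals, not divided by length, was 8.99 to 22.1 in the 6 FBS-based samples that were not ultrafiltrated, 4.76 and 2.56 in UF-dFBS and 0.560 in StemPRO. Averaged on the log2 scale, it was 4.13-fold lower in UF-dFBS than in the 6 others (exact permutation test, two-sided p = 0.0714, adjusted p = 0.107 over 6 ratios), and the groups did not overlap. Met to Phe was 29.2-fold lower and Met to Trp 4.88-fold lower, and Phe to Trp was 5.98-fold higher, with the same exact permutation p, the smallest that 2 against 6 samples can give, so that none of them could pass a threshold of 0.05. Ile to Trp hardly separated the groups (1.18-fold lower, exact permutation p = 0.714). The UF-dFBS samples themselves were far apart, with Met to Phe at 48.4 and 3.20, Met to Trp at 24.2 and 5.33 and Phe to Trp at 0.500 and 1.67. Without UF-dFBS-2 the log2 differences from the 6 others were -1.60 for Met to Ile, -2.91 for Met to Phe, -1.19 for Met to Trp and 1.71 for Phe to Trp, and without UF-dFBS-1 they were -2.49, -6.83, -3.38 and 3.45. These ratios were added after the data had been seen.

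**Figure D3:**
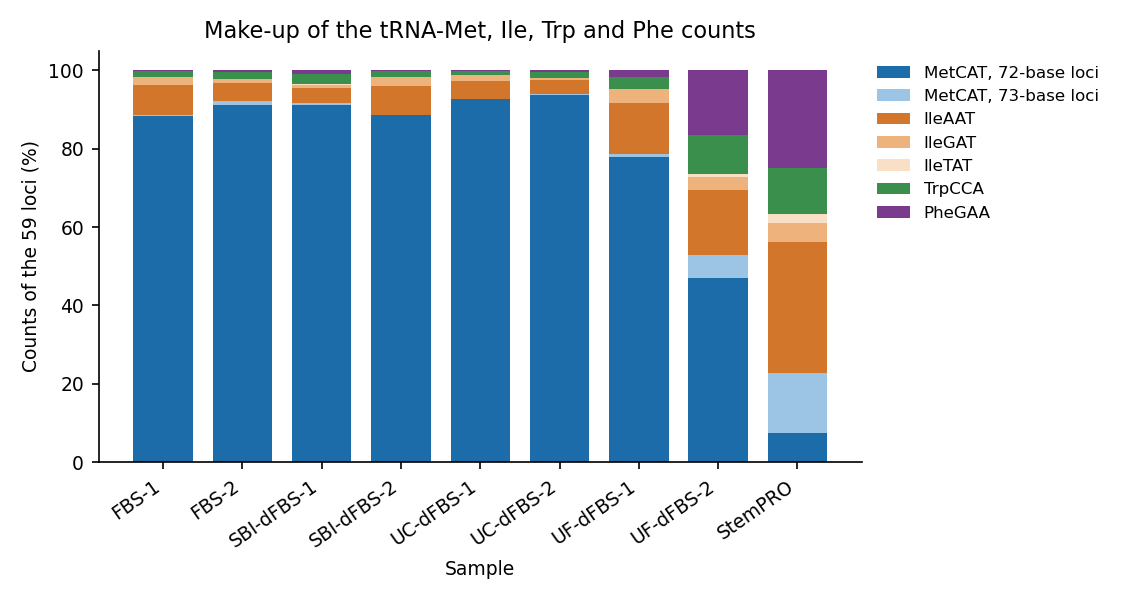
Percentage of the counts of the 59 loci that fell on each anticodon and MetCAT length class (vertical axis) in the 9 samples (horizontal axis). MetCAT loci of 72 bases take the largest part of each FBS-based sample, less in the UF-dFBS samples, and a small part of StemPRO, where IleAAT and PheGAA loci lead.

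Set against FBS of the same serum, the isotypes were at unequal levels in UF-dFBS. tRNA-Met in UF-dFBS was 0.0571 times FBS in the Sigma serum (95% interval of the counts 0.0549 to 0.0595) and 0.0131 times in the Gibco serum (0.0100 to 0.0168). tRNA-Ile was at 0.108 (0.0974 to 0.120) and 0.0825 (0.0509 to 0.129), and tRNA-Trp at 0.141 (0.110 to 0.183) and 0.133 (0.0616 to 0.270). For tRNA-Phe the ratios were 0.809 (0.406 to 1.83) and 0.887 (0.360 to 2.48), with both intervals including 1. All tRNA together was at 0.158 and 0.0528. The intervals of tRNA-Met lay below and those of tRNA-Phe above those of the other 3 isotypes in both sera, whereas those of tRNA-Ile and tRNA-Trp overlapped. With 1 sample per medium and serum, these intervals cover counting error only.

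Relative to the 6 other FBS-based samples, tRNA-Met was 5.79 lower on the log2 scale in UF-dFBS and tRNA-Trp 3.51 lower, and neither overlapped with them (exact permutation test, two-sided p = 0.0714, adjusted p = 0.143 over 4 isotypes). tRNA-Ile was 3.75 lower (exact permutation p = 0.214) and tRNA-Phe 0.93 lower (exact permutation p = 0.429). As a share of all tRNA counts the direction held for tRNA-Met alone, and was the opposite for tRNA-Ile (0.43), tRNA-Trp (0.67) and tRNA-Phe (3.25). Against FBS alone no isotype total of UF-dFBS, UC-dFBS or SBI-dFBS could pass the threshold, as the smallest exact permutation p of 2 against 2 samples is 0.333.

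Locus by locus, counts were tested with edgeR on all loci of the table that had at least 10 counts in 2 of the 8 FBS-based samples. Of the 59 loci 28 passed this filter (10 Met, 15 Ile, 2 Trp and 1 Phe), among 363 loci in all. In UF-dFBS against FBS 27 of the 28 had a fitted level below FBS, with a median log2 fold change of -3.47 against -3.63 over all loci tested, and 0 of 28 passed an adjusted p of 0.05 (0% of all loci tested). Both medians depended on single samples, with -1.004 against -0.48 without FBS-1 and -7.46 against -6.76 without UF-dFBS-1. At an unadjusted p of 0.05 the counts were 2 of 28 and 108 of 363, and DESeq2 with the same spike-in factors called 9 of 28 (37.2% of all loci). Since both media share their sera, the fit with the serum as a block was also made. In it 27 of 27 loci tested were called lower in UF-dFBS at an adjusted p of 0.05, against 66.1% of all 322 loci. As the placement of reads among tRNA copies is not known, the 27 may share reads and may not be separate results. With TMM, which sets the bulk of loci equal, the same block fit called 0 of the 27 (12.4% of all loci), and 21 of all loci higher and 19 lower in place of 0 and 213.

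The largest changes of that block fit were at initiator-length Met loci. tRNA2-MetCAT had a log2 fold change of -5.19 ± 1.51 (SE, edgeR adjusted p = 0.00185), from 164 and 25.4 spike-in normalized counts in FBS to 8.71 and 0.167 in UF-dFBS. tRNA150-MetCAT (chromosome 6, 27300764 to 27300835, minus strand) had -5.16 ± 1.45 (edgeR adjusted p = 0.00138) and tRNA171-MetCAT (chromosome 6, 26313352 to 26313423, minus strand) -5.05 ± 1.43 (edgeR adjusted p = 0.00148). Without the block they had log2 fold changes of -4.41, -4.28 and -4.37 (edgeR adjusted p = 0.218, 0.230 and 0.214). The median over the 10 Met loci was -4.90 with the block, over the 15 Ile loci -3.19 and over the 2 Trp loci -2.96. No Phe locus had enough counts for the block fit.

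**Figure D4:**
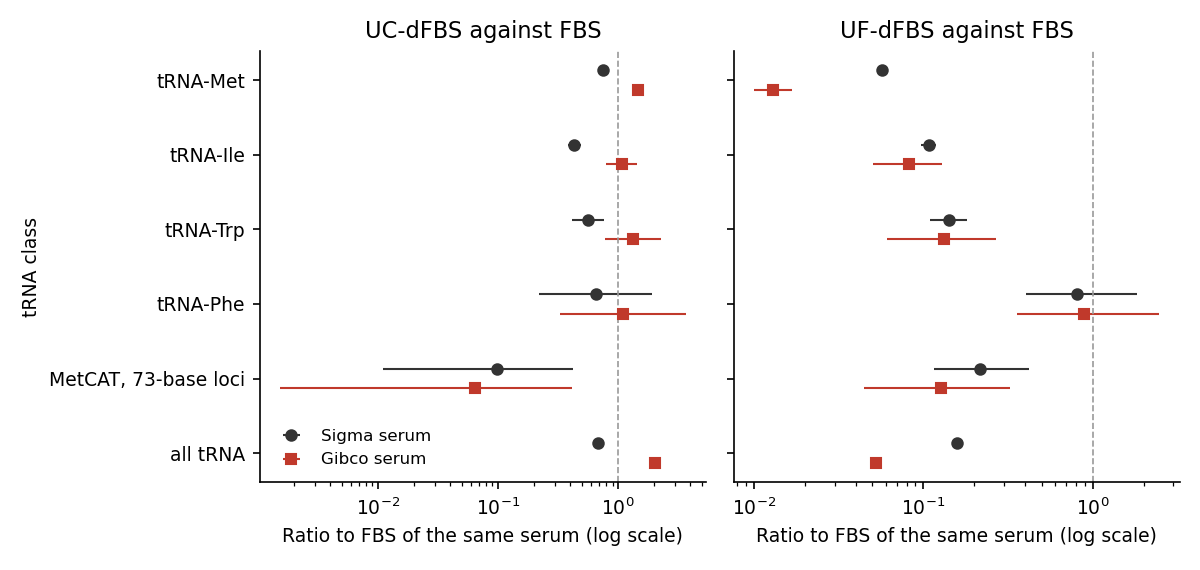
Ratio of the spike-in normalized total in UC-dFBS (left) and UF-dFBS (right) to that in FBS of the same serum (horizontal axes, log scale) for each isotype, the 73-base MetCAT loci and all tRNA; circles are the Sigma serum, squares the Gibco serum, and bars the 95% interval of the counts. In UF-dFBS tRNA-Met lies furthest below 1 and tRNA-Phe nearest to it, and in UC-dFBS the 73-base MetCAT loci are the ones below 1 in both sera.

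The ratios of UC-dFBS to FBS lay on different sides of 1 in the Sigma and Gibco sera, but beyond counting error in both sera for tRNA-Met alone. tRNA-Met in UC-dFBS was 0.751 times FBS in the Sigma serum (95% interval of the counts 0.724 to 0.777) and 1.46 times in the Gibco serum (1.37 to 1.57). tRNA-Ile was at 0.431 (0.380 to 0.488) and 1.07 (0.793 to 1.44), and tRNA-Trp at 0.561 (0.413 to 0.760) and 1.33 (0.781 to 2.27). tRNA-Phe was at 0.659 (0.221 to 1.92) and 1.09 (0.327 to 3.65), on 7 to 9 counts a sample. All tRNA together was at 0.680 and 2.04. In edgeR 0 of 28 loci passed the threshold (0% of all loci tested), and DESeq2 called 0. At an unadjusted edgeR p of 0.05 the counts were 1 of 28 and 12 of all 363 loci, a similar share. The median log2 fold change was -0.61 against -0.87 over all loci, and 0.55 against 0.14 with TMM. It ranged from -1.87 without UC-dFBS-1 to 1.62 without FBS-1. The block fit also called 0 of 27, against 2.48% of all loci.

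The locus below that unadjusted p was tRNA10-MetCAT of the elongator length. Its log2 fold change in UC-dFBS was -3.49 ± 1.46 (SE), with an adjusted p of 0.989 in edgeR. The 73-base Met loci together were at 0.0988 times FBS in the Sigma serum (interval 0.0110 to 0.425) and 0.0643 times in the Gibco serum (0.00154 to 0.410), while the 72-base loci were at 0.752 and 1.48 times. In UF-dFBS the order was the reverse, with the 73-base loci at 0.216 (0.116 to 0.424) and 0.128 (0.0448 to 0.324) and the 72-base loci at 0.0567 and 0.0118. The length classes were set apart after the data had been seen and were not tested.

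SBI-dFBS had the highest single values of all isotypes, although its lots differed. The first lot had 3.33-fold less tRNA-Met than the second, 6.98-fold less tRNA-Ile and 1.99-fold less tRNA-Trp, but 1.67 times as much tRNA-Phe (interval 1.00 to 2.93). Both lots exceeded both FBS samples in tRNA-Phe, by 4.92-fold on average, and in tRNA-Trp, by 4.39-fold (exact permutation p = 0.333 each). tRNA-Met and tRNA-Ile overlapped with FBS. In edgeR 0 of 28 loci passed the threshold (0% of all loci tested), and DESeq2 called 0. An unadjusted edgeR p under 0.05 was found at 0 of the 28 and at 4 of all 363 loci. The median log2 fold change was 1.45 against 1.11 over all loci, and -0.05 against -0.38 with TMM. Without FBS-1 it was 3.51 against 3.73, without FBS-2 0.62 against 0.36, and without SBI-dFBS-2 0.0025 against -0.22.

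The serum supplier was compared over the FBS, UC-dFBS and UF-dFBS media, each of which had a sample from the Sigma and from the Gibco serum. Each supplier was represented by a single serum lot, so that its samples are not independent. A difference between suppliers cannot be told apart from a difference between these lots. tRNA-Met was higher in the Sigma serum by 6.25-fold in FBS, 3.20-fold for UC-dFBS and 27.3-fold for UF-dFBS. tRNA-Ile was higher by 11.2, 4.53 and 14.7-fold, tRNA-Trp by 5.66, 2.39 and 6.02-fold and tRNA-Phe by 1.98, 1.19 and 1.80-fold. All tRNA together was higher by 12.4, 4.12 and 37.0-fold. The direction was thus the same in every medium. The 4 isotypes had smaller fold differences than tRNA as a whole, with the exception of tRNA-Ile in UC-dFBS. The tRNA-Ile counting intervals include the all-tRNA value for FBS (9.04 to 14.1) and for UC-dFBS (3.60 to 5.74). The total depends strongly on tRNA-His, which made up 63.7% of tRNA with untreated Sigma serum but 6.61% with untreated Gibco serum. A comparison without tRNA-His was not made, so that nothing particular to the 4 isotypes can be read from this.

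Over the 3 media the mean fold difference was 8.18 for tRNA-Met, 9.07 for tRNA-Ile, 4.34 for tRNA-Trp and 1.62 for tRNA-Phe. Sigma and Gibco samples did not overlap for tRNA-Ile and tRNA-Phe (exact permutation test, two-sided p = 0.1, the smallest that 3 against 3 samples can give), while tRNA-Met and tRNA-Trp overlapped (exact permutation p = 0.3). The test did not pair the samples by medium, so that the differences between media count as spread within a supplier. As a share of all tRNA counts, tRNA-Trp was lower in the Sigma samples by 1.51 on the log2 scale without overlap (exact permutation p = 0.1, adjusted p = 0.4). tRNA-Phe was lower by 2.93, tRNA-Met by 0.59 and tRNA-Ile by 0.45, with overlap.

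In the edgeR fit with medium as a term, 27 of the 59 loci had at least 10 counts in 3 of the 6 samples. All 27 had a higher fitted level in the Sigma serum, and 25 of them were called higher at an adjusted p of 0.05. The fit took samples made from the same serum as independent, so that its p-values compare a single lot with another. Copies of a tRNA gene may share reads, so that these calls may not be separate results. Of the 280 loci tested 62.1% were called higher, and none was called lower. All 15 Ile loci tested, 9 of 10 Met loci and 1 of 2 Trp loci were called. The median log2 fold change of the 27 was 3.02, against 3.13 over all loci and 3.56 over the 205 other tRNA loci tested. With TMM the median of all loci was -0.29 and that of the 27 was -0.34, 0 of the 27 were called (39.3% of all loci), and all loci split into 50 higher and 60 lower. The calls are thus differences relative to the spike-ins.

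The Ile loci led these calls. tRNA154-IleAAT (chromosome 6, 27205350 to 27205423, minus strand) was at 8.26, 3.82 and 1.03 spike-in normalized counts in the Sigma samples of FBS, UC-dFBS and UF-dFBS, and at 0.671, 0.147 and 0.0416 in the Gibco samples. Its log2 fold change was 4.09 ± 0.81 (SE, edgeR adjusted p = 3.38e-05). tRNA163-IleAAT (chromosome 6, 26745255 to 26745328, minus strand) had 3.90 ± 0.79 (edgeR adjusted p = 5.35e-05) and tRNA28-IleAAT (chromosome 6, 26780832 to 26780905, plus strand) 3.73 ± 0.78 (edgeR adjusted p = 7.21e-05). The most abundant Met and Trp loci had smaller differences than these, with 2.91 ± 1.15 for tRNA32-MetCAT (edgeR adjusted p = 0.0265) and 2.53 ± 0.70 for tRNA12-TrpCCA (edgeR adjusted p = 0.00209). The Ile loci tested ranged from 2.46 to 4.09 (median 3.40) and the Met loci from 0.67 to 3.33 (median 2.94), so that the isotypes overlapped.

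The members not called were tRNA10-MetCAT, of the elongator length, at 0.67 ± 0.96 (edgeR adjusted p = 0.547) and tRNA6-TrpCCA of chromosome 12 at 1.44 ± 0.78 (edgeR adjusted p = 0.0938). The number of calls depended on single samples, and so did the number of loci that passed the filter. Without FBS-1, 0 of 12 loci tested were called (5.21% of all loci tested), and without FBS-2 13 of 26 (28.8%). Without UC-dFBS-1, 10 of 13 were called (38.9%), and without UF-dFBS-1 12 of 12 (56.25%).

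**Figure D5:**
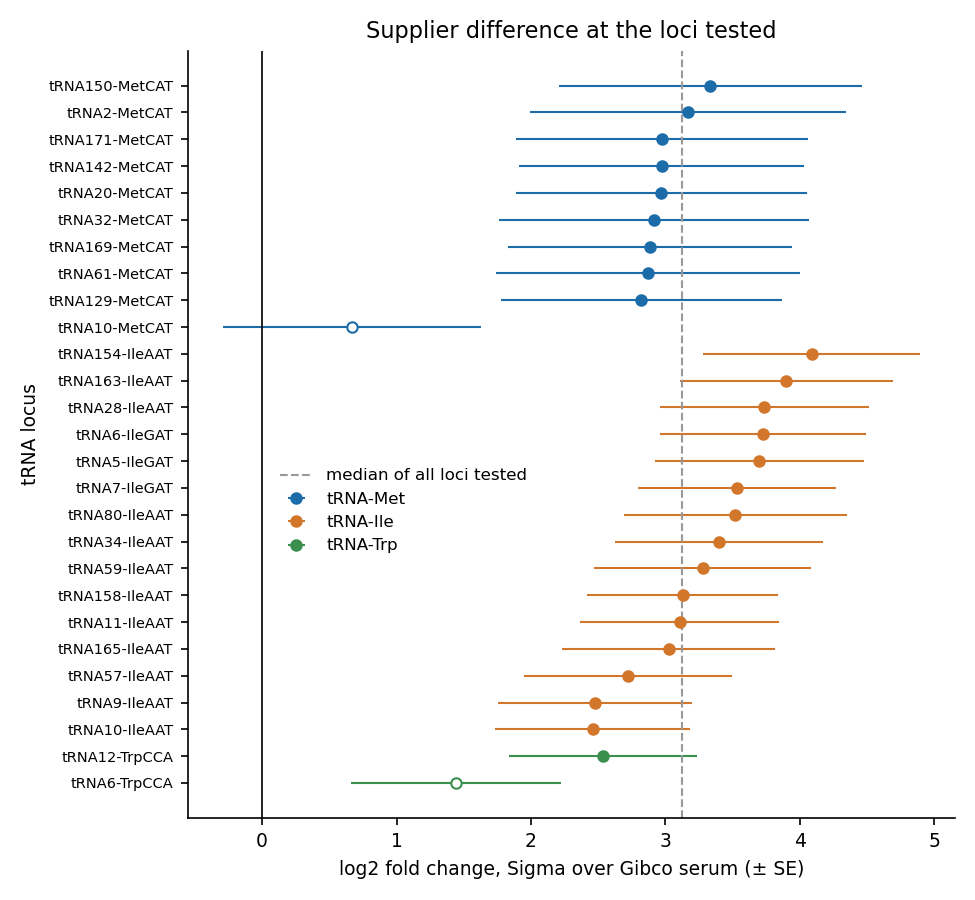
Log2 fold change of the Sigma over the Gibco serum (horizontal axis, with SE) for the 27 loci tested by edgeR, by isotype (vertical axis); filled points passed an adjusted p of 0.05 and open points did not, and the dashed line is the median of all 280 loci tested. The Met loci but one lie close together near the dashed line at 3.13, the Ile loci spread around it, and tRNA10-MetCAT and tRNA6-TrpCCA lie lowest.

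StemPRO differed from the sera in level and in order. Its tRNA-Ile was highest, at 0.694 (95% Poisson interval 0.546 to 0.870), followed by tRNA-Phe at 0.426 (0.312 to 0.568), tRNA-Met at 0.389 (0.280 to 0.525) and tRNA-Trp at 0.204 (0.128 to 0.308). The intervals of each neighbouring pair in this order overlapped, so that only isotypes further apart, such as tRNA-Ile and tRNA-Met, had separate counting intervals. Compared with the mean of FBS, tRNA-Met was at 0.000526 times, tRNA-Ile at 0.00900 times, tRNA-Trp at 0.0163 times and tRNA-Phe at 0.304 times. The highest locus of each isotype was tRNA106-PheGAA with 24 counts, tRNA34-IleAAT with 13, tRNA10-MetCAT and tRNA22-MetCAT with 12 each, and tRNA6-TrpCCA of chromosome 12 and tRNA168-TrpCCA with 5 each. StemPRO had 1 sample, and these values were not tested.

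With presence taken as more than 1 spike-in normalized count in any sample of a medium, 28 of the 59 loci were present in FBS, 34 in the SBI-dFBS lots, 26 for UC-dFBS, 21 for UF-dFBS and 0 for StemPRO. Of all 1361 loci 29.4%, 28.4%, 22.3%, 15.6% and 0.147% passed it in the same order. Phe loci passed it in SBI-dFBS only, with 4 of 12. The Met and Ile loci that passed numbered 10 and 15 in FBS, 9 and 15 for UC-dFBS and 9 and 11 for UF-dFBS. In StemPRO 47 of the 59 loci had at least 1 count, the highest locus being at 0.222.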

How the data were processed

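RNA isolated from 9 media samples with an EV kit, which may hold vesicular and non-vesicular RNA, was sequenced with unique molecular identifiers. The deposited counts were made by the authors with cutadapt 1.11 and Bowtie2 2.2.2: reads with an insert of at least 16 nt were collapsed by identifier and mapped to human GRCh37, allowing 1 mismatch in the first 32 bases. For the second deposited table the authors scaled these counts to a spike-in normalized signal, with 1 factor per sample fitted to external spike-ins; that the factor was constant within a sample was checked on the values. The spike-ins are of miRNA size, and their reads were not analysed here. The paper regards this scaling as probably less accurate for the other small RNAs, most of which were longer than miRNAs.

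Totals, shares with Wilson intervals and ratios with intervals from the counts were computed in python 3.11.15 with scipy 1.17.1. All intervals cover counting error only. Loci were tested in R 4.3.3 with edgeR 4.0.16 (quasi-likelihood F-test, library sizes set to the spike-in factors, Benjamini-Hochberg adjustment over all loci tested, threshold 0.05). The medium fit held the 8 FBS-based samples, and the supplier fit 6 samples with medium as a term. The fits were also run on simulated counts with set changes and set spreads, which does not measure their error rates in these data. Isotype totals were compared with exact permutation tests on the log2 scale. Alternatives were DESeq2 1.42.0, TMM, other filters, leaving out samples and the serum as replicate block. The pairing by serum comes from the study's methods. Differences between sample 1 and sample 2 correlated across 363 loci at 0.759 (FBS with UC-dFBS), 0.604 (FBS with UF-dFBS) and 0.574 (UC-dFBS with UF-dFBS), loci not being independent replicates. SBI-dFBS, whose lots are numbered without regard to the Sigma and Gibco sera, gave -0.564 with FBS, -0.516 with UC-dFBS and -0.416 with UF-dFBS. Correlations of such size thus also arose without pairing, and these values do not test the pairing.

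Loci named singly were the 3 most abundant per isotype, up to 3 per fit and direction with the largest changes past the threshold, and the highest of each isotype in StemPRO. The loci and lists were chosen with earlier results of these data known. StemPRO was not tested. The values of single miRNAs were not used here.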

Additional observations from a re-analysis of the deposited data

Results flagged for a closer look

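The direction of UC-dFBS against FBS was opposite in the Sigma and Gibco sera for each of the 4 isotypes. On the log2 scale of spike-in normalized totals, UC-dFBS minus FBS was -0.41 in the Sigma serum and 0.55 in the Gibco serum for tRNA-Met, and -1.21 and 0.10 for tRNA-Ile. It was -0.60 and 0.13 for tRNA-Phe, and -0.83 and 0.41 for tRNA-Trp. Only for tRNA-Met did the 95% counting intervals of both ratios exclude no difference. In the Gibco serum tRNA-Ile rested on 92 against 94 counts, tRNA-Trp on 34 against 28 and tRNA-Phe on 7 against 7, so that their direction there is within counting error, as is that of tRNA-Phe in the Sigma serum. With 1 sample per medium and serum, the difference between sera was not tested, and the 4 isotypes of a sample share its spike-in factor. No group had enough samples for a search for outlying samples.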

How the results depend on the processing

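Isotype totals compared 2 samples against 2 could not pass the threshold, so that keeping its side says nothing about their stability. Of the 59 loci, DESeq2 with spike-in factors called 9 in UF-dFBS against FBS (37.2% of all loci tested). The fit with the serum as replicate block called 27 (66.1% of all loci tested). The block changed no call of these loci in UC-dFBS. With TMM it called 0 of them in both, against 0% of all loci tested in UC-dFBS and 12.4% in UF-dFBS. For Sigma against Gibco, 0 of the 59 loci were called with TMM (39.3% of all loci tested) and with DESeq2 and its own size factors (52.5%). Without the medium term 0 were called as well (0% of all loci tested). When 1 sample was left out, 0 to 26 were called (5.21% to 66.8% of all loci tested), with 12 to 27 of the 59 loci tested. The log2 fold change of tRNA32-MetCAT was then -0.61 with TMM and -0.29 with the size factors of DESeq2, and that of tRNA12-TrpCCA -0.89 and -0.59.

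As a share of all tRNA, the log2 difference from FBS reversed to -0.22 (Met) and -0.36 (Ile) in SBI-dFBS, -0.17 (Met) for UC-dFBS, and 0.046 (Ile), 3.21 (Phe) and 0.59 (Trp) for UF-dFBS. Against the 6 other samples UF-dFBS reversed to 0.43 (Ile), 3.25 (Phe) and 0.67 (Trp). In raw counts tRNA-Phe of UF-dFBS was 2.36 above FBS and 1.64 above the 6 others. With 1 sample left out, the difference from FBS ranged from -0.16 to 3.33 for Ile in SBI-dFBS, and in UC-dFBS from -1.25 to 1.39 (Met), -2.30 to 1.19 (Ile), -0.73 to 0.26 (Phe) and -1.46 to 1.04 (Trp). For Phe in UF-dFBS it ranged from -0.73 to 0.25, and the log2 difference of the Ile to Trp ratio between UF-dFBS and the 6 others from -0.88 to 0.40. The mean per locus brought Ile minus Trp to 0.39.

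At a threshold of 0.1, 50 loci were present in FBS, 54 in SBI-dFBS, 35 in UF-dFBS and 4 in StemPRO. In FBS-1 and FBS-2, 1 count stood for 0.206 and 0.134 and so passed 0.1. In UF-dFBS-1 and StemPRO 3 counts stood for only 0.0543 and 0.0278, so that the numbers at 0.1 are not comparable between media. At 5 there were 13 for UC-dFBS and 9 for UF-dFBS, and by the mean of samples 10 for UF-dFBS. Shares of all loci are not given for these thresholds, so that nothing particular to the 59 loci can be read from them. The cause of these changes was not tested. UF-dFBS-2, with 121 counts over the 59 loci, and tRNA-Phe in FBS, with 9 and 7 counts, limit what could be detected.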
